A study of Mus musculus with 2 samples.

Results

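The genes described here encode the factors that start and carry out protein synthesis on cytosolic ribosomes. They were chosen by name alone, as genes whose symbol begins with Eif followed by a digit from 1 to 6 or with Eef1 or Eef2 and that have an annotated protein-coding transcript. The kinases of eIF2 (Eif2ak) and the gamma subunit genes (Eif2s3) were left out by the rule. This gave 62 genes of 55536 annotated genes, 22028 of them protein-coding. Total RNA of the cytosol, with ribosomal RNA removed, was sequenced from macrophages that had been grown from the bone marrow of C57BL/6J mice and exposed to 100 ng/ml lipid A for 75 minutes. Lipid A is the part of bacterial lipopolysaccharide that activates Toll-like receptor 4. There was 1 group of 2 libraries, called replicate 1 and replicate 2, each from 1 µg of RNA. Both carry the same donor identifier and the labels name no separate animals or cultures, so the spread between them may be partly technical. Unstimulated cells were not analysed here, so the values are levels after lipid A and say nothing of what lipid A changed, and no test between groups exists.

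Initiation begins when eIF2 brings the initiator tRNA to the small ribosomal subunit, together with eIF1, eIF1A, eIF5 and the large eIF3 complex. The cap-binding complex eIF4F, made of the cap-binding protein eIF4E, the scaffold eIF4G and the helicase eIF4A, recruits this assembly to the mRNA, and eIF5B joins the large subunit at the start codon. During elongation eEF1A delivers aminoacyl-tRNAs, the eEF1B complex recharges it with GTP, eEF2 moves the ribosome along, and eIF5A relieves stalling. In macrophages exposed to bacterial products, synthesis of cytokines depends on this machinery, and both its best-known switches, phosphorylation of eIF2 and release of eIF4E from its binding proteins, act on proteins and are not seen in RNA levels.

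Summed over annotated genes, replicate 1 held 55596607 expected counts and replicate 2 held 50157111. All 8 macrophage markers were at a mean of 16.7 TPM or more over the 2 libraries. The 4 T cell, 4 B cell, 3 erythroid and 3 stromal markers all lay below 1 TPM. Of the 6 neutrophil markers 3 passed 1 TPM, at a mean of up to 17.3 TPM. TPM is an abundance corrected for transcript length that sums to the same total in each library. Here the signal recognition particle RNA genes Rn7s1 and Rn7s2 took 69.8% of all TPM in replicate 1 and 60.5% in replicate 2, so the TPM of every mRNA is low in absolute terms. Where libraries or quantifications had to be put side by side, TPM was therefore also computed over nuclear-encoded protein-coding genes alone, called here the nuclear scale. In bulk RNA, fewer cells of a type and less RNA per cell cannot be told apart. The listed nuclear RNAs Malat1, Neat1, Xist and Meg3 summed to 174 TPM in replicate 1 and 869 TPM in replicate 2, with Meg3 at 0 counts in both.

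Several stretches of sequence carry the results below. The helicase gene Eif4a2 (chromosome 16, plus strand, mm10) has transcripts that differ in an exon of 140 bases, which its most abundant transcript, Eif4a2-210, lacks and 5 of its 6 transcripts annotated protein-coding hold. It lies in the coding region at chr16:23109120-23109259:
Eif4a2 exon absent from Eif4a2-210: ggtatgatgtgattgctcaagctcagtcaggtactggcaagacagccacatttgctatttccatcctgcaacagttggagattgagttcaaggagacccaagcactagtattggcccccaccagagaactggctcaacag
The length of this exon is not a multiple of 3, and the annotated stop codon of Eif4a2-210 is at 23110065 to 23110067, in the next exon, against 23113309 to 23113311 in the coding transcript Eif4a2-201. The second most abundant transcript, Eif4a2-204, keeps that exon and adds another of 107 bases (23112351 to 23112457). Its first 30 bases, at chr16:23112351-23112380, hold the annotated stop codon, in capitals:
Eif4a2-204 added exon: gagtcgaTAGcggcagttgatgacgagatg
In the elongation factor gene Eef1b2 (chromosome 1, plus strand), transcript Eef1b2-205 leaves the first exon 41 bases early and begins the next exon 31 bases early, at chr1:63177723-63177753:
Eef1b2-205 added bases: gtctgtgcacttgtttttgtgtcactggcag
The helicase cofactor gene Eif4h (chromosome 5, minus strand) has a coding cassette exon of 60 bases at chr5:134624441-134624500, present in Eif4h-205 and absent from Eif4h-201:
Eif4h cassette exon: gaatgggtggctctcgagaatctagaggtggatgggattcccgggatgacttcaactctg
All exon sequences are from the GENCODE M21 transcripts.

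Nearly the whole set was present. At a mean of 1 TPM or more, 59 of the 62 members (95.2%) were detected, against 39.3% of all protein-coding genes, and 35 of 62 (56.5%) reached 10 TPM, against 14.0%. The same 59 passed in each library. The median member stood at 14.5 TPM in replicate 1 and 14.2 TPM in replicate 2, while the median protein-coding gene among those at 1 TPM or more stood at 6.04 and 6.21 TPM. Members at 1 TPM or more had medians of 15.0 and 15.6 TPM. Together the members took 1.48% of the nuclear scale in replicate 1 and 1.33% in replicate 2. A single gene, Eef1a1, made up 46.3% and 44.4% of the members' summed TPM.

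**Figure D1:**
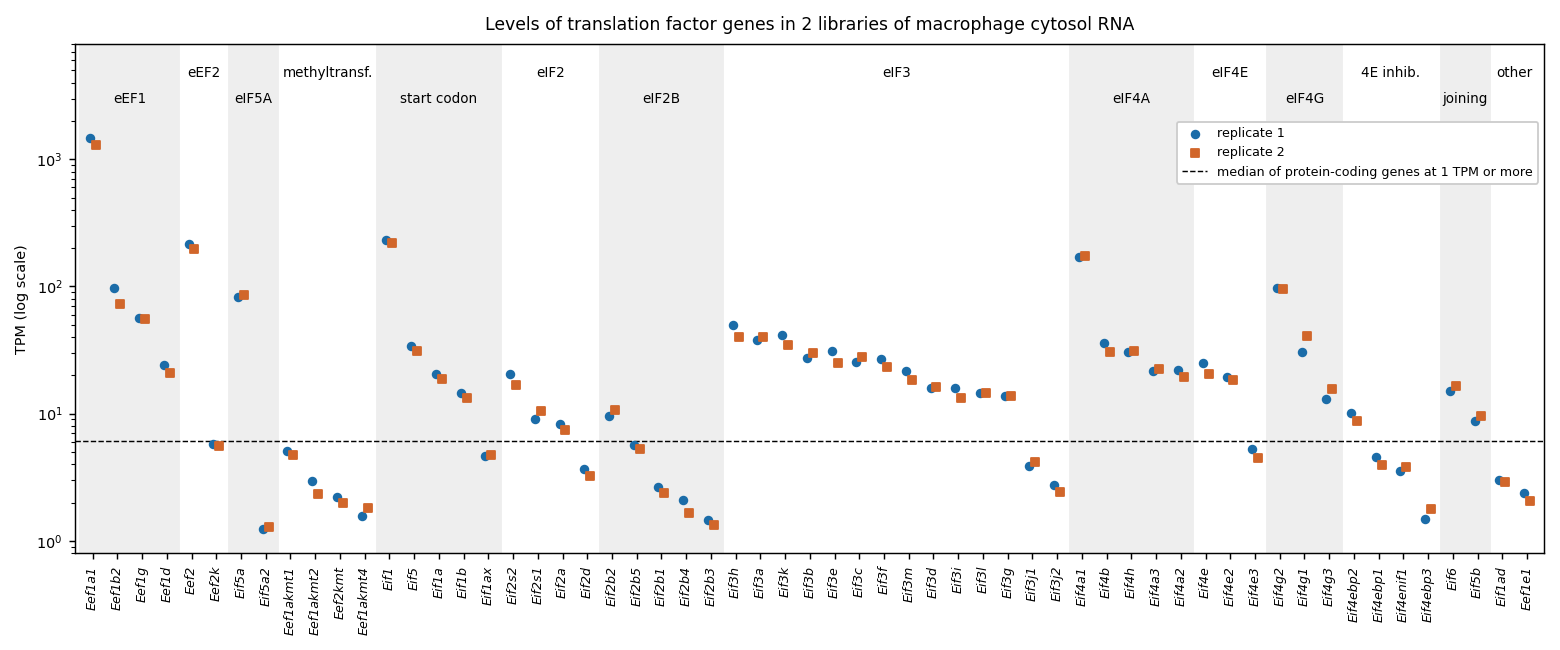
Level of each of the 59 members at a mean of 1 TPM or more (y axis, TPM, log scale) in replicate 1 (circles) and replicate 2 (squares), grouped by role and sorted by mean within a role. The dashed line is the median of protein-coding genes at 1 TPM or more, 6.14 TPM. Eef1a1 stands alone at the top, the eIF3 subunits lie close together except Eif3j1 and Eif3j2, and most eIF2B subunits and methyltransferases lie under the line.

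Among the elongation factors, Eef1a1, which encodes the general eEF1A (chromosome 9, 78478449 to 78489151, minus strand), had 1476 TPM in replicate 1 and 1293 TPM in replicate 2 (1384 ± 129, SD, n = 2) and ranked 15th of all protein-coding genes. Its paralog Eef1a2, known from muscle and neurons, had 1 expected count in each library, which is below the floor of 3 counts and gives no fold. Eef2, the translocase (chromosome 10, 81176631 to 81182498, plus strand), followed at 215 and 196 TPM. RNA for the subunits of the eEF1B complex was far lower than that for eEF1A. Eef1b2 had 97.6 and 72.8 TPM, Eef1g 56.9 and 55.5 TPM and Eef1d 24.2 and 21.03 TPM. Eef1a1 exceeded Eef1b2 by 15.1-fold in replicate 1 and 17.8-fold in replicate 2, Eef1g by 25.9-fold and 23.3-fold, and Eef1d by 61.0-fold and 61.5-fold, as ratios of TPM. By whole-gene TPM the order Eef1a1, Eef2, Eef1b2, Eef1g, Eef1d held in both libraries without overlap. Counting transcripts annotated as protein-coding alone, Eef1b2 had 53.9 and 35.9 TPM and Eef1g 47.7 and 49.0 TPM, so Eef1g was the higher in replicate 2. On that count Eef1a1 exceeded Eef1b2 by 27.2-fold and 34.0-fold.

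Eef2k, the kinase that inhibits eEF2, had 5.79 and 5.58 TPM, 37.2-fold and 35.2-fold less than its substrate's RNA. By transcripts annotated protein-coding alone the folds were 58.5 and 54.7. Eif5a, the hypusine-bearing factor that relieves stalled ribosomes, had 82.6 and 86.3 TPM. Its paralog Eif5a2 had 1.23 and 1.28 TPM, lower by 67.2-fold and 67.4-fold. Of the methyltransferases that modify elongation factors on lysine, the highest was Eef1akmt1 (5.07 and 4.73 TPM), followed by Eef1akmt2 (2.96 and 2.34), Eef2kmt (2.20 and 1.98) and Eef1akmt4 (1.58 and 1.80). Eef1akmt3 had 1 expected count in replicate 1 and 0 in replicate 2, at or under the floor of 3. Eef1e1, whose product belongs to the multi-tRNA synthetase complex rather than to eEF1, had 2.39 and 2.04 TPM.

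The start-codon factors were led by Eif1, the gatekeeper of start codon selection (chromosome 11, 100319885 to 100322096, plus strand), at 232 and 218 TPM. Its paralog Eif1b had 14.5 and 13.2 TPM, lower by 16.1-fold and 16.5-fold. Counting transcripts annotated as protein-coding alone, Eif1b was lower by 9.54-fold and 8.90-fold. Eif5, which triggers GTP hydrolysis by eIF2, had 33.9 and 31.3 TPM. The paralogs for eIF1A were unequal, with Eif1a at 20.6 and 18.7 TPM and the X-linked Eif1ax at 4.62 and 4.74 TPM. Eif1ad, a nuclear protein named for its eIF1A-like domain, had 3.01 and 2.91 TPM.

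RNA for the subunits of eIF2 was moderate. Eif2s2, the beta subunit, had 20.7 and 16.7 TPM and Eif2s1, the alpha subunit whose phosphorylation shuts down initiation, 9.04 and 10.4 TPM. Beta exceeded alpha by 2.28-fold in replicate 1 and 1.603-fold in replicate 2. By transcripts annotated protein-coding alone, Eif2s1 had 8.89 and 8.41 TPM and the folds were 2.32 and 1.96. In the second quantification described further on, the whole-gene folds were 1.65 and 1.29. The noncanonical tRNA carriers Eif2a and Eif2d had 8.30 and 7.41 TPM and 3.67 and 3.24 TPM. The exchange factor eIF2B, which reloads eIF2 with GTP and is built from equal numbers of its subunits, had unequal RNA levels. Eif2b2 was highest (9.60 and 10.6 TPM), then Eif2b5, the catalytic subunit (5.71 and 5.28), Eif2b1 (2.63 and 2.39), Eif2b4 (2.11 and 1.67) and Eif2b3 (1.46 and 1.33). The highest and lowest mean differed by 7.25-fold, and the order was the same in both libraries. Counting transcripts annotated as protein-coding alone, Eif2b2 lay below Eif2b5, at 4.43 and 4.28 TPM, since much of its TPM lay in a retained-intron transcript.

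The 14 eIF3 genes lay in a narrow band with 2 exceptions. From Eif3h (49.5 and 40.0 TPM), Eif3a, the scaffold subunit (37.7 and 40.1), and Eif3k (41.8 and 34.4) down to Eif3g (13.9 and 13.7), 12 subunits stayed within 13.3 to 49.5 TPM in either library. Eif3b had 27.6 and 29.7 TPM, Eif3e 31.1 and 25.1, Eif3c 25.5 and 28.0, and Eif3f 26.9 and 23.1. Neighbours in this order did not always differ beyond the spread: Eif3h was above Eif3a in replicate 1 and level with it in replicate 2 (40.02 and 40.05 TPM). The exceptions were the paralogs for the loosely bound subunit, Eif3j1 (3.89 and 4.16 TPM) and Eif3j2 (2.76 and 2.41 TPM). The split between these 2 is uncertain, as the second quantification shows.

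In the cap-binding complex, RNA for the helicase Eif4a1, the scaffold Eif4g1 and its unusual relative Eif4g2 exceeded that for the cap-binding protein Eif4e. Eif4a1 (chromosome 11, 69666936 to 69672423, minus strand) had 171 and 173 TPM, against 22.0 and 19.5 TPM for Eif4a2 and 21.7 and 22.5 TPM for Eif4a3, the paralog of the exon junction complex. The helicase cofactors Eif4b and Eif4h had 35.9 and 30.5 TPM and 30.4 and 31.1 TPM. Eif4g2, an eIF4G-like protein that does not bind eIF4E, was the highest scaffold gene (97.2 and 94.6 TPM). The canonical Eif4g1 had 30.4 TPM in replicate 1 and 41.1 TPM in replicate 2 and Eif4g3 had 13.1 and 15.6 TPM, so Eif4g2 exceeded Eif4g1 by 3.19-fold and 2.30-fold. Eif4e, the cap-binding protein itself, had 25.03 and 20.7 TPM. Its paralog Eif4e2, which competes for caps without eIF4G, had 19.3 and 18.4 TPM, and Eif4e3 had 5.23 and 4.45 TPM. The germline paralog Eif4e1b had 0 expected counts in both libraries.

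The eIF4E-binding proteins, which hold eIF4E back from eIF4G until mTORC1 phosphorylates them, were led by Eif4ebp2 (10.1 and 8.77 TPM). Eif4ebp1 had 4.60 and 3.98 TPM, lower by 2.20-fold in both libraries. By transcripts annotated protein-coding alone it was lower by 3.34-fold and 3.17-fold, and by whole genes in the second quantification by 1.97-fold and 2.05-fold. Eif4ebp3 had 1.48 and 1.78 TPM from 90.02 and 91.03 expected counts, with a deposited posterior SD of 15.8% and 14.0% of the count. It shares its strand with the overlapping gene AC115631.1, which had 807 and 768 counts. Eif4enif1, the eIF4E transporter, had 3.52 and 3.83 TPM. Of the late factors, Eif6, which keeps the large subunit from joining early, had 15.0 and 16.6 TPM and Eif5b, which joins it, 8.81 and 9.58 TPM. Counting strand is not given in the sources used here, and 11 members overlap a protein-coding gene on the opposite strand that reached 1 TPM. Reads from such pairs may therefore not have been told apart where the genes overlap. Examples are Eif2a beside Serp1 (41.8 and 35.5 TPM) and Eif3j1 beside Spg11 (5.33 and 5.93 TPM).

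The other genes of the pathway, from 7 lists of regulators and partners, were measured beside the members. Of 49 listed genes 43 reached 1 TPM, and the median was 4.76 TPM. Eif2s3x, the gamma subunit of eIF2, had 26.1 and 24.5 TPM. Among the eIF2 kinases, the double-stranded-RNA sensor Eif2ak2 was highest (12.8 and 11.5 TPM), above Eif2ak1 (4.91 and 4.43), the amino acid sensor Eif2ak4 (1.86 and 1.87) and the endoplasmic reticulum sensor Eif2ak3 (1.38 and 1.78). Ppp1r15a, the inducible phosphatase subunit that reverses eIF2 phosphorylation, had 525 TPM in replicate 1 and 256 TPM in replicate 2. That is above every member except Eef1a1 in both libraries, and it was the single listed gene of 46 with a mean count of 100 or more that lay past 1.5-fold between the libraries (scaled count ratio 0.495). Its constitutive relative Ppp1r15b had 16.9 and 15.1 TPM. The poly(A)-binding protein gene Pabpc1 (178 and 167 TPM) lay close to Eif4a1. Of the eIF4E kinases, Mknk2 had 24.0 and 21.1 TPM and Mknk1 20.4 and 18.3 TPM. All 8 genes for poly(A)-binding and scanning cofactors, 8 of 9 for control of eIF4F by mTORC1 and MAP kinases, 6 of 8 hypusine and diphthamide enzymes, 5 of 6 termination and recycling factors, 6 of 8 mitochondrial translation factors and 3 of 3 selenocysteine factors reached 1 TPM.

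The libraries gave closely similar levels, with a shift to lower values in replicate 2. The ratio of replicate 2 to replicate 1 was taken from expected counts scaled by TMM, for the 58 members with a mean count of 100 or more. Of the 58, 0 lay past 1.5-fold in either direction, against 3.50% of protein-coding genes at the same count. Past a ratio of 5 to 4 in either direction were 6 members (10.3%), against 16.7%. The median member ratio was 0.894 (log2 -0.16), and the median over protein-coding genes was 0.981 (log2 -0.03). Lower in replicate 2 were 48 of 58 members (82.8%), against 55.1% of protein-coding genes. Across the 58 members, log2 TPM of the libraries had a Pearson r of 0.996. This describes genes measured in the same 2 libraries, and the genes are not independent replicates.

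Eef1b2 differed most, with 7090 expected counts in replicate 1 and 4508 in replicate 2, a scaled ratio of 0.728 (95% Clopper-Pearson interval 0.701 to 0.755, counting error only). Next came Eif3h (0.774, interval 0.744 to 0.805), Eif3e (0.780, interval 0.745 to 0.816), Eif2s2 (0.781, interval 0.748 to 0.814) and Eif3k (0.795, interval 0.749 to 0.844). In the other direction lay Eif4g1, with 15134 and 16756 expected counts and a ratio of 1.27 (interval 1.24 to 1.30). Its paralog Eif4g3 had a ratio of 1.17, while Eif4g2 had 0.917. The intervals of 34 of the 58 members (58.6%) lay wholly below 1, against 31.0% of protein-coding genes, and those of 6 (10.3%) wholly above 1, against 25.4%. These shares also depend on depth, since a higher count gives a narrower interval. The 6 were Eif3a, Eif3b, Eif3c, Eif4g1, Eif4g3 and Eif5b, and 3 of them, Eif3a, Eif3c and Eif5b, changed sign in the second quantification described further on. Within the eIF3 complex, Eif3a (1.04), Eif3b (1.06) and Eif3c (1.05) were slightly above 1 in the first quantification and at 0.982, 1.003 and 0.990 in the second. Eif3h, Eif3e and Eif3k were lower in replicate 2 by more than a ratio of 5 to 4 in the first quantification, and had ratios of 0.729, 0.736 and 0.754 in the second.

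**Figure D2:**
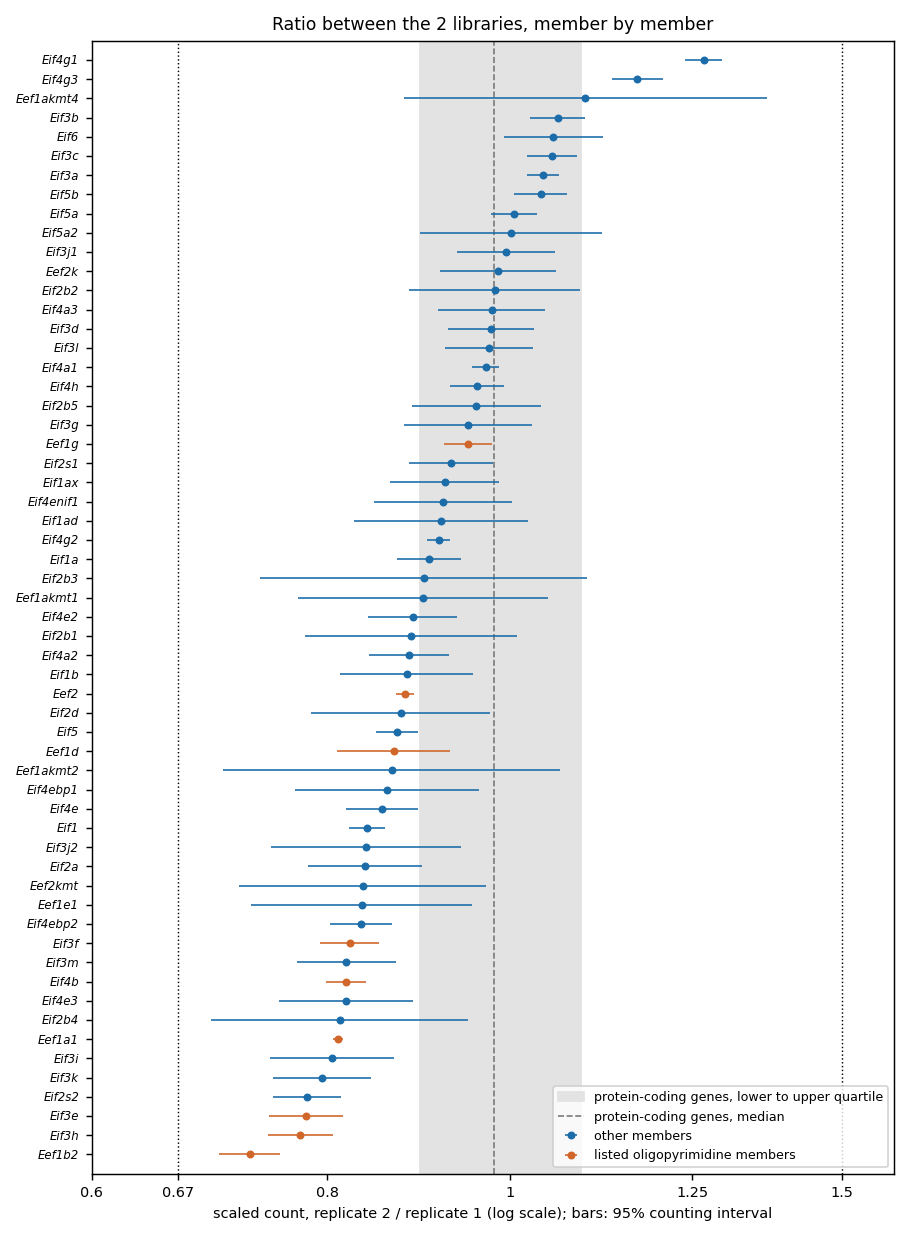
Ratio of TMM-scaled counts, replicate 2 over replicate 1 (x axis, log scale), for the 58 members with a mean count of 100 or more; bars are 95% counting intervals and dotted lines mark 1.5-fold. The grey band spans the quartiles of protein-coding genes (0.896 to 1.09) and the dashed line their median, 0.981. All points lie inside the dotted lines, most are left of the dashed line, and Eif4g1 and Eif4g3 lie to the right.

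Many mRNAs of the translation machinery carry a terminal oligopyrimidine tract, a C followed by pyrimidines at the very start of the mRNA, which places them under mTORC1 and LARP1. The list of such mRNAs was chosen with earlier results of these data known, so the comparison by list is a description and no independent support. Of 9 members listed as such mRNAs (Eef1a1, Eef1b2, Eef1d, Eef1g, Eef2, Eif3e, Eif3f, Eif3h and Eif4b), all 9 were lower in replicate 2. Their ratios ran from 0.728 (Eef1b2) to 0.950 (Eef1g), with a median of 0.819. The other 49 members had a median of 0.917, with 39 of 49 lower, and ranged from 0.781 to 1.27. The 81 cytosolic ribosomal protein genes, the best-known carriers of the tract, had a median of 0.764 and all 81 were lower. On the second quantification the log2 medians of these groups were -0.38, -0.20 and -0.48, against -0.10 for protein-coding genes. Malat1 moved the opposite way between the libraries, with 158 TPM in replicate 1 and 799 TPM in replicate 2, and its part in these ratios was not tested. Larp1 itself had 15.6 and 15.0 TPM and Mtor 2.95 and 3.37 TPM.

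Start windows from RefSeq (build GRCm38.p6) matched 46 of the 62 members by symbol. They were searched, on the gene's own strand, for a C followed by at least 4 bases that are each C or T, beginning within 2 bases of the annotated start. This was found in 7 members (15.2%), namely Eef1a1, Eif1ad, Eif2b5, Eif3b, Eif3f, Eif3l and Eif4g1, against 10.6% of all genes with a window and 8.96% of all windows. Of the 9 listed members 5 were matched, and 2 of these, Eef1a1 and Eif3f, held it. The windows below run from 10 bases before to 20 bases from the annotated start, which is the 11th base, with the tract in capitals. They are shown for the listed members that hold it and for Eif4g1, which lay in the opposite direction between the libraries.
Eef1a1, chr9:78481705-78481734, minus strand: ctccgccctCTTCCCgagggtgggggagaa
Eif3f, chr7:108934405-108934434, plus strand: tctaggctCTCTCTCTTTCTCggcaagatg
Eif4g1, chr16:20672717-20672746, plus strand: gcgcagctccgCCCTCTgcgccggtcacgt
A match describes letters at an annotated start and no measured start site. Of the 7 members with a match, 2 were higher in replicate 2, Eif3b (1.06) and Eif4g1 (1.27). The other 5 were lower, Eef1a1 (0.811), Eif3f (0.822), Eif1ad (0.9197), Eif2b5 (0.960) and Eif3l (0.975). Among protein-coding genes 55.1% were lower.

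Transcript length moved with the ratio to a small degree. Across the 58 members, the Pearson r of log2 effective length and log2 ratio was 0.37, and over 9699 protein-coding genes it was 0.19. The 20 shortest members, with effective lengths up to 1390 bases, had a median ratio of 0.875 and the 19 longest, above 2278 bases, 0.923. Protein-coding genes in the same length ranges had medians of 0.919 and 1.01, so in both ranges the members' median was the lower. The part of length in the result was not tested. Eif3k has an effective length of 552 bases and Eef1b2 of 630 bases, while Eif3a has 4773, Eif4g1 4227 and Eif4g3 5180 bases. Eif2s2, at 2279 bases, was among the lowest ratios without being short.

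The depositors quantified each library a second time, directly from the reads. Ratios of second to first were centred on the median over protein-coding genes, which removed a log2 shift of 0.016. On the nuclear scale, 59 members could be compared, and 2 of them (3.39%) lay past 1.5-fold, against 5.23% of protein-coding genes. The median ratio of second to first quantification was 0.977 for members, with quartiles of 0.947 and 1.06. Both exceptions belong to the eIF3J pair. Eif3j1, on the nuclear scale, had 18.02 and 19.04 TPM in the first quantification and 11.4 and 12.9 TPM in the second, a ratio of 0.647. Eif3j2 had 12.8 and 11.0 TPM in the first and 26.7 and 24.3 TPM in the second, a ratio of 2.12. In the first quantification Eif3j1 was therefore the higher by 1.41-fold and 1.73-fold, and in the second Eif3j2 was the higher in both libraries. The sum of the pair was 30.8 and 30.1 TPM in the first and 38.2 and 37.2 TPM in the second, 1.24-fold more in both libraries without centring. The deposited posterior SD was 5.75% and 7.71% of the count for Eif3j2 and 1.78% and 1.97% for Eif3j1, and it was over 1% for just 2 other members, Eif4ebp3 and Eef2kmt (1.67% and 1.81%). The pair's sum thus differed less between quantifications than either member did.

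**Figure D3:**
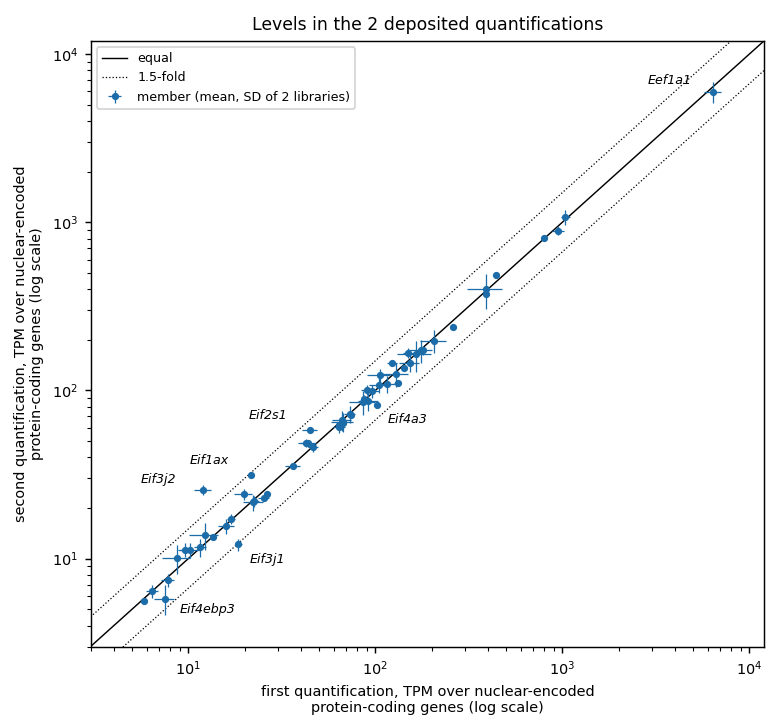
Level of 59 members in the first (x axis) and second (y axis) quantification, as TPM over nuclear-encoded protein-coding genes, both on log scales; points are means and bars SDs of the 2 libraries. The solid line marks equality and dotted lines 1.5-fold. Eif3j2 lies above the band and Eif3j1 below it, and the other points lie between the dotted lines.

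Other members shifted less. Eif1ax was 1.44-fold higher in the second quantification (31.0 and 31.6 TPM against 21.4 and 21.7) and Eif2s1 1.28-fold (57.4 and 58.7 against 41.9 and 47.7). Eif4a3 was lower, at 81.7 and 81.6 TPM against 100.5 and 102.8. In Eif1ax and Eif2s1, much of the second quantification's level sat in short transcripts that are not annotated as coding: Eif1ax-202, a retained-intron transcript of 416 bases, held 52.3% and 55.4% of the gene's TPM there, against 25.7% and 30.8% in the first. Eif2s1-203, a processed transcript of 433 bases, held 32.1% and 35.1%, against 0 and 16.4%. Eif4e1b, absent from the first quantification, had 4.001 and 14.5 estimated counts in the second, or 0.0861 and 1.55 TPM on the nuclear scale.

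Members were made mostly of coding transcripts. The median member with a mean count of 100 or more had 99.1% of its TPM in transcripts annotated protein-coding in replicate 1 and 98.4% in replicate 2, against 98.8% and 97.5% for all such protein-coding genes. Under 90% were 15 of 58 members (25.9%), close to the 26.9% of protein-coding genes. The most abundant transcript was not protein-coding in 4 of 58 members (6.90%), namely Eef1b2, Eef2k, Eif2b2 and Eif4a2, against 4.63% of protein-coding genes. By share of the expected count, 1 of the 4 was left, Eif4a2. Expected counts grow with transcript length, for which TPM is corrected, so count shares weigh long transcripts more.

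Eif4a2 was led by a transcript that is not protein-coding under each way of counting that was tried. Transcript Eif4a2-210, which skips the exon of 140 bases and is annotated for nonsense-mediated decay, held 47.5% of the gene's TPM in replicate 1 and 41.3% in replicate 2. Eif4a2-204, with the added exon and its early stop codon, also annotated for decay, held 25.4% and 25.2%. Grouped by structure, the 2 transcripts that skip the exon had 1964 and 1389 expected counts (52.5% and 48.0% of the gene), the 2 that hold the added exon 1332 and 839 counts (35.6% and 28.99%), and the 5 other transcripts annotated protein-coding 414 and 577 counts (11.1% and 19.9%). Of the 2 with the added exon, 1 is itself annotated protein-coding. The second quantification gave the 5 coding transcripts more, 24.7% and 35.1% of counts, and the exon-skipping transcripts 42.4% and 36.1%. Transcripts annotated for decay held 82.7% and 77.0% of the gene's counts in the first quantification and 67.4% and 59.9% in the second. In both quantifications the share of the 5 coding transcripts was higher in replicate 2. By TPM of transcripts annotated protein-coding alone, Eif4a1 exceeded Eif4a2 by 35.0-fold in replicate 1 and 43.3-fold in replicate 2. For whole genes the folds were 7.80 and 8.88. The coding TPM of Eif4a2, 4.75 in replicate 1 and 3.81 in replicate 2, includes the added-exon transcript annotated protein-coding. The 5 other coding transcripts had 3.05 and 3.81 TPM, so without that transcript coding Eif4a2 was not lower in replicate 2. In the second quantification the fold by coding transcripts was 18.5 and 22.002, and by whole genes 7.51 and 8.78.

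Eef1b2 was divided among 3 transcripts. The decay-annotated Eef1b2-205, whose shifted splice sites lead to a stop codon at 63178450 to 63178452, held 43.5% and 47.3% of TPM. Eef1b2-209, annotated protein-coding although it skips an exon of 123 bases, held 42.2% and 35.4%, and the longer coding Eef1b2-204, which keeps it, 13.0% and 13.9%. By expected count the shares were more even, at 33.6%, 28.97% and 36.4%. The second quantification gave Eef1b2-205 47.9% and 51.6% of TPM. Eif2a had a further decay-annotated transcript, Eif2a-207, at 23.8% and 34.5% of TPM in the first quantification but 4.45% and 17.6% in the second.

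In Eif2b2, Eef2k, Eif1 and Eif4a3 the non-coding share rested on short transcripts. Eif2b2-206, a retained-intron transcript of 338 bases, held 46.8% and 54.0% of TPM but 9.15% of counts, and Eef2k-206, of 800 bases, 37.0% and 34.4% of TPM but 8.12% of counts. In the second quantification Eef2k-206 held 21.2% and 14.1% of TPM and the coding Eef2k-204 led. Eif1-202, a processed transcript of 383 bases, had 40.4% and 45.7% of TPM and 10.1% of counts. Eif4a3-203, of 466 bases, had 47.3% and 49.1% of TPM and 15.2% of counts, with 34.1% and 31.3% of TPM in the second quantification. Eif4g1 differed, since its retained-intron transcript Eif4g1-210 is long (5004 bases) and held 9.10% and 11.7% of TPM and 11.9% of counts in the first quantification, but 0 and 0.477% of TPM in the second. Eif1 kept 138 and 118 TPM in protein-coding transcripts, so it stayed below Eif4a1 on that scale (166 and 165 TPM) although its whole-gene level was above it. Eif2b2 had 64.4 and 69.4 expected counts behind its short transcript, the thinnest basis among these.

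**Figure D4:**
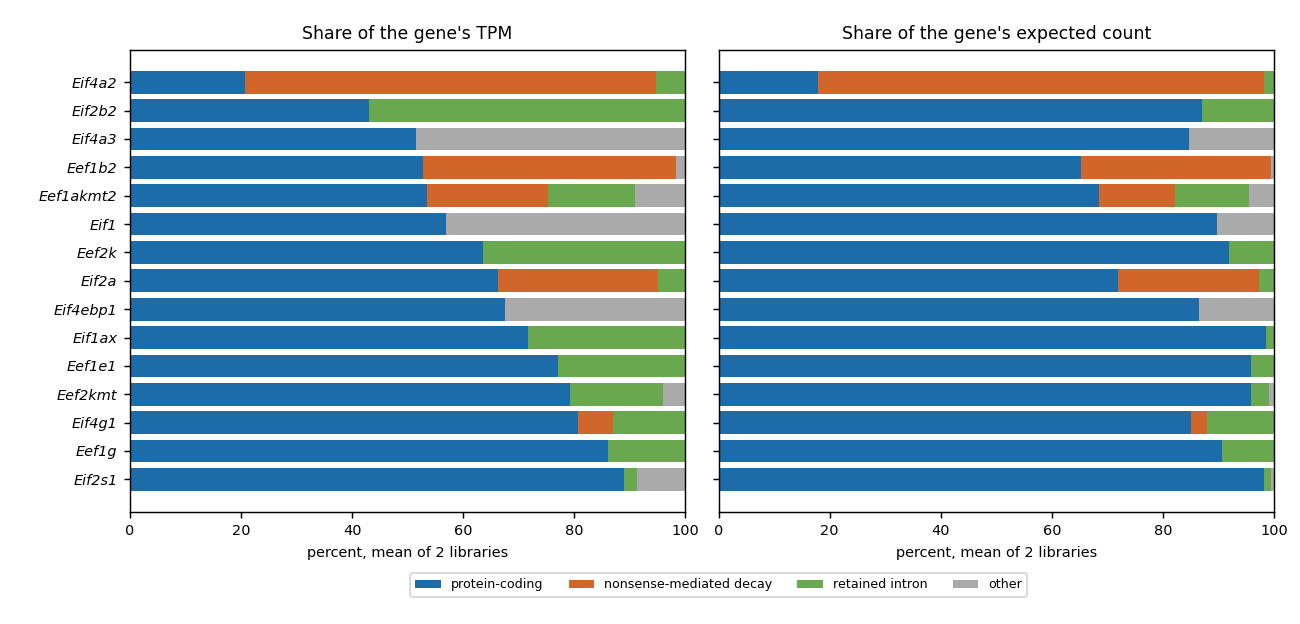
Share of each gene's TPM (left) and expected count (right), as percent in the mean of 2 libraries, in transcripts annotated protein-coding, for nonsense-mediated decay, as retained intron or otherwise, for the 15 members with under 90% of TPM in coding transcripts. Eif4a2 is mostly decay-annotated in both panels, while Eif2b2, Eif4a3, Eif1 and Eef2k are mostly coding when counts are used.

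Some members were divided among coding transcripts, with no transcript at 50% of the gene's TPM in the mean of both libraries. In Eif4e the leading Eif4e-205, of 729 bases, held 37.4% and 36.7% of TPM, while Eif4e-201, of 4991 bases, held 69.7% of counts. In the second quantification Eif4e-202 led with 32.5% and 31.1% of TPM, against 31.8% and 27.4% for Eif4e-205. Eif4g1-202 led its gene with 46.3% and 45.7%, Eif4g3-215 with 39.0% and 41.3%, and Eif4enif1-203 with 48.4% and 43.8%. Eif2b4 changed its leader, with Eif2b4-212 at 52.9% in replicate 1 and 30.7% in replicate 2 and Eif2b4-201 at 24.3% and 41.6%, from 390 and 277 counts over the gene. In the second quantification Eif2b4-212 held 27.0% and 4.90% and Eif2b4-201 25.1% and 40.9%. Eif4h, whose leading transcript was above 50%, was split by its cassette exon. Eif4h-205, with the exon, held 42.2% and 35.2% of TPM, and Eif4h-201, without it, 55.3% and 60.03%, and the second quantification gave 43.9% and 36.9% for Eif4h-205. Both forms were thus present in each library, and the form without the exon was the higher in both.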

How the data were processed

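The members and the lists of roles, tract-bearing mRNAs, pathway genes and markers were chosen with earlier results of these data known. Expected counts (unnormalized, not always whole) and TPM, with the posterior SD as another column and isoform shares in percent, were deposited by the authors per library, per the file headers. The readme files name mm10 and M21 for both quantifications; the first came from transcriptome alignments and the second directly from reads. The aligner, the quantifier, their versions and the strand: not given in the sources used here.

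Genes were joined to GENCODE M21 by versioned identifier. Expected counts were rounded and scaled by TMM in edgeR 4.0.16 (R 4.3.3), with DESeq2 1.42.0 size factors as an alternative. Ratios used a pseudocount of 0.5 and a mean count of 100 or more. Intervals are 95% Clopper-Pearson. Levels are TPM per library; the nuclear scale sums to the same total over nuclear-encoded protein-coding genes. The leading transcript is the one with the most TPM in the mean of both libraries. The ratio calculation, tested on simulated data for 10092 genes, placed 200 of 200 changed genes past 1.5-fold and 3 unchanged ones. The simulation held counting (Poisson) noise alone, and its changed genes had median log2 ratios of 0.99 and -1.01. It therefore checks the calculation and not the spread of real libraries. Leaving out each library, other scalings, filters, thresholds, the second quantification and coding transcripts alone were tried; the last, and the look at length, were chosen after seeing the data. Values are given in full for the 10 highest members, the ends of each role, paralogs, members under 1 TPM, members past 1.5-fold between libraries or quantifications, and members led by a non-coding or minority transcript. With 1 group no p-value was computed. Figures were drawn with matplotlib 3.10.9, and other steps ran in Python 3.11.15 with scipy 1.17.1, pandas 2.3.3 and numpy 2.4.6.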

Additional observations from a re-analysis of the deposited data

Results flagged for a closer look

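Signal was also present in genes outside the 62, above the floor of 3 counts in both libraries of the first quantification. Of 10 genes that carry a member's kind of symbol but no protein-coding transcript, 9 had 10 counts or fewer in each library. The exception was Eif4a-ps4, a processed pseudogene named for the helicase eIF4A, with 574 and 436 expected counts (mean 505; 4.96 and 4.47 TPM) in the first quantification and 604 and 283 in the second. Eif3s6-ps2, a pseudogene named for the gene now called Eif3e, had 7.08 and 3.86 counts (mean 5.47) in the first quantification and 1.02 and 2.02 in the second, under the floor of 3. Reads of a pseudogene and its parent gene can be divided uncertainly, and no share of these counts was assigned to Eif4a1 or Eif3e here.

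Within 8 members lie 17 annotated small nucleolar RNA genes on the same strand, 12 of them at 0 counts in both libraries. Gm23262, inside Eif4g2, had 51.0 and 120 counts (mean 85.3), and Gm22988, inside Eif4a1, had 11.9 and 27.8 counts (mean 19.8). Both were higher in replicate 2, while Eif4g2 and Eif4a1 had scaled ratios of 0.917 and 0.971.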

How the results depend on the processing

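The number of members at 1 TPM or more was 59 without either library, on the nuclear scale, at 0.5 TPM and by coding transcripts alone; it was 55 in the second quantification and 35 at 10 TPM. The median of 14.5 TPM was 14.2 to 14.5 with 1 library left out, 66.6 on the nuclear scale, 6.40 in the second quantification and 13.8 by coding transcripts alone. The 55 and the 6.40 are TPM as deposited, which is not on the same scale in the 2 quantifications. On the nuclear scale the median member ratio of second to first was 0.977. The median log2 ratio of -0.16 was -0.21 when scaled by the nuclear-encoded protein-coding total, -0.15 at a mean count of 10 or more and -0.24 in the second quantification. No member was past 1.5-fold between libraries under any alternative scaling, filter or quantification; a threshold of 5 to 4 gave 6. Of the 58 single ratios, 2 (Eif5a and Eif5a2) changed sign when scaled by the protein-coding total and 5 (these, Eif3a, Eif3c and Eif5b) in the second quantification. Members past 1.5-fold between quantifications numbered 2 to 3 with 1 library left out, the third being Eif4e1b, and 4 by coding transcripts alone (also Eif4a2 and Eif5b). Leading transcripts that are not protein-coding numbered 3 to 4 with 1 library left out (Eef2k was lost in replicate 2 alone), 1 by expected count and 6 in the second quantification, where Eif1ax, Eif4ebp1 and Eif5b joined and Eef2k left. The causes were not tested. No paired analysis was possible because there is 1 group. Depth limits members under 100 counts, namely Eef1a2, Eif4e1b, Eef1akmt3 and Eif4ebp3, for which no ratio is given.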
